A study of Mus musculus with 12 samples.

Results

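The mitochondrially encoded genes were taken as every row of the gene table whose symbol starts with mt-, which gave 36 of 47359 rows. They comprised 13 mRNAs, 2 rRNAs and 21 tRNAs, all on chromosome M of the GRCm38 (mm10) build in the GENCODE M21 annotation, and 22 of the 36 passed the filter on low values used for testing (13 mRNAs, 2 rRNAs and 7 tRNAs). The annotation also holds mt-Ts2, which is not analysed here. The mitochondrial chromosome is read from both strands as long precursors that are cut into rRNAs, mRNAs and tRNAs, with the tRNAs lying between most of the other genes. The mRNAs encode core subunits of the respiratory chain and ATP synthase, the rRNAs form the mitochondrial ribosome, and the tRNAs serve translation inside the organelle. In T cells, respiration and mitochondrial translation change with activation, differentiation and memory formation.

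RNA was sequenced from T cells of the central nervous system (CNS) of RAG2-/- hosts, which lack lymphocytes made through antigen receptor rearrangement but keep myeloid and natural killer cells. The hosts had received TH17 cells carrying 2D2, a transgenic T cell receptor that recognises a myelin protein, and cells were collected at the peak of experimental autoimmune encephalomyelitis, in which T cells attack myelin. There was 1 library of 2D2-IL-17A/F-DKO CXCR6+ cells and 1 of 2D2-IL-17A/F-DKO SLAMF6+ cells (DKO, lacking Il17a and Il17f), with 5 libraries of 2D2-WT CXCR6+ and 5 of 2D2-WT SLAMF6+ cells (WT). Each library came from 1000 sorted living cells made into full-length cDNA by a modified SMART-Seq2 protocol and sequenced as paired reads of 38 bases. The sample descriptions end in the letter m and a number that CXCR6+ and SLAMF6+ libraries share, but the labels do not say what it stands for, nor that replicates were separate animals. The p-values therefore reflect the spread among these libraries, which may be technical, and each single DKO library was assumed to vary like the WT ones. Age, sex and strain are not given.

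The deposited whole numbers already carried a division by transcript length, so values of different genes were set side by side. How fully each RNA was captured in the cDNA was not tested. The order of levels, and ratios between RNA classes, need not be those of abundance in the cell. The deposited values were expressed as scaled ppm, parts of the library total in ppm divided by a scaling factor per library. Library totals ran from 6818658 to 11635037. Both DKO libraries stood apart from the WT libraries in more than the targeted genes. In every comparison of DKO with WT, genotype cannot be told apart from these other differences. Il17a was at 0 ppm in DKO CXCR6+ and 0.445 ppm in DKO SLAMF6+, against 201 to 448 ppm in WT CXCR6+ and 222 to 439 ppm in WT SLAMF6+. Trbv16, the receptor segment of the 2D2 transgene, held 9.96% of all Trbv values in DKO CXCR6+ and 6.51% in DKO SLAMF6+, against 99.6 to 99.8% in the 10 WT libraries. Cd3e, a T cell receptor complex gene, was at 583 ppm in DKO CXCR6+, 557 ppm in DKO SLAMF6+, 149 to 182 ppm in WT CXCR6+ and 205 to 230 ppm in WT SLAMF6+. Cd4 was at 322 ppm in DKO CXCR6+ and 345 ppm in DKO SLAMF6+. Its WT values were 200 to 313 ppm in CXCR6+ and 264 to 316 ppm in SLAMF6+. The summed CD4 T cell markers (14 genes, all above 0 in all libraries) went the other way, at 8613 ppm in DKO CXCR6+, 9899 ppm in DKO SLAMF6+, 24660 to 35506 ppm in WT CXCR6+ and 32930 to 38195 ppm in WT SLAMF6+. Summed TH17 markers, Il17a and Il17f among them, were at 361 ppm in DKO CXCR6+ and 352 ppm in DKO SLAMF6+. Their WT values were 1080 to 1317 ppm in CXCR6+ and 1207 to 1397 ppm in SLAMF6+. The sorting marker Slamf6 was at 76.4 ppm in DKO CXCR6+, 265 ppm in DKO SLAMF6+, 1.75 to 5.31 ppm in WT CXCR6+ and 5.74 to 10.3 ppm in WT SLAMF6+. Cxcr6 was at 385 ppm in DKO CXCR6+, 166 ppm in DKO SLAMF6+, 4.65 to 44.1 ppm in WT CXCR6+ and 10.6 to 18.2 ppm in WT SLAMF6+, so that it overlapped between the WT subsets.

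Mitochondrial mRNAs took a larger share of the library in WT CXCR6+ than in WT SLAMF6+ cells, and the DKO libraries of both subsets lay between these groups. The 13 mRNAs together made up 6.74, 6.64, 6.74, 6.63 and 8.55% of the library total in WT CXCR6+ replicates 1 to 5, against 1.37, 1.70, 1.24, 1.43 and 2.22% in WT SLAMF6+ replicates 1 to 5. The means were 7.06 ± 0.834% and 1.59 ± 0.388% (SD, n = 5 each), a ratio of 4.43, and the groups did not overlap. The share was 3.48% in DKO CXCR6+ and 4.08% in DKO SLAMF6+. Fewer cells of a kind and less RNA per cell cannot be told apart in such libraries.

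The 2 rRNAs also took a larger share in WT CXCR6+ than in WT SLAMF6+ cells, with a wider spread. They made up 5.38, 4.07, 6.70, 2.47 and 4.18% in WT CXCR6+, against 1.09, 1.92, 0.870, 0.788 and 1.00% in WT SLAMF6+, with 2.07% in DKO CXCR6+ and 2.04% in DKO SLAMF6+. The WT groups did not overlap, although WT CXCR6+ replicate 4 came close to WT SLAMF6+ replicate 2. The ratio of rRNA to mRNA values ran from 0.373 to 0.994 in WT CXCR6+ and from 0.453 to 1.13 in WT SLAMF6+, which overlapped, and was 0.595 in DKO CXCR6+ and 0.500 in DKO SLAMF6+. The tRNA share, described further on, was 3.87 ± 1.78% in WT CXCR6+ and 0.456 ± 0.650% in WT SLAMF6+ (SD, n = 5 each), and 1.90% and 2.44% in DKO CXCR6+ and DKO SLAMF6+.

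**Figure D1:**
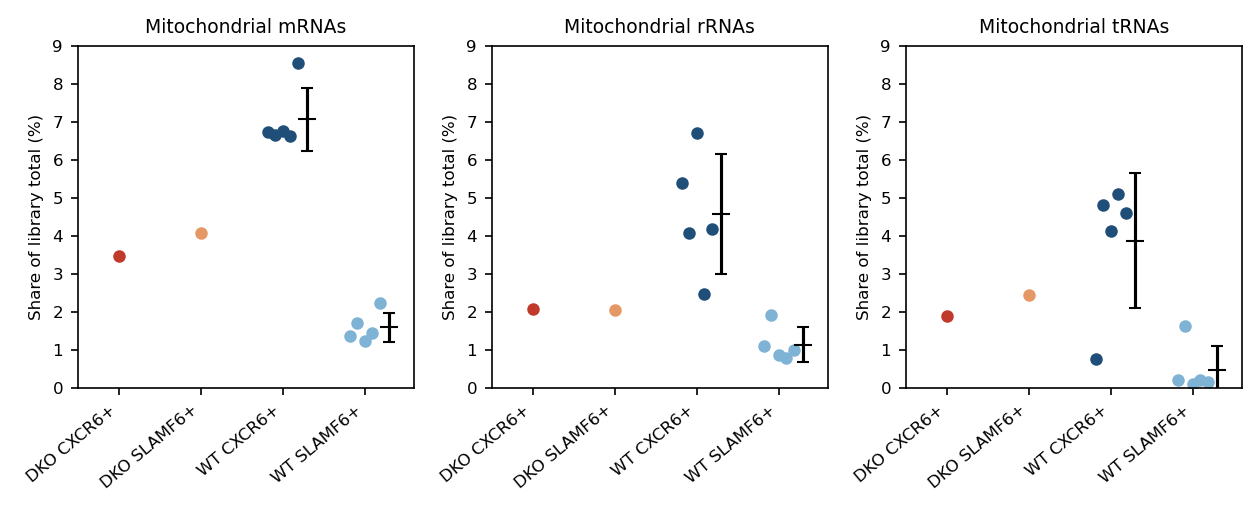
Share of the library total (%) held by the mitochondrial mRNAs, rRNAs and tRNAs; each point is a library, and the black bar is the mean ± SD of 5 WT libraries (the axis ends at 0, which cuts the lower bar of the WT SLAMF6+ tRNAs). The mRNA shares of WT CXCR6+ (6.63 to 8.55%) lie above both DKO libraries (3.48 and 4.08%), and all WT SLAMF6+ libraries (1.24 to 2.22%) lie below them.

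Among the 15 mRNAs and rRNAs, mt-Rnr2, the large-subunit rRNA (1582 nt, chrM:1094-2675), had the highest level in all 12 libraries, with a mean of 25745 ppm. The small-subunit rRNA mt-Rnr1 (955 nt, chrM:70-1024) averaged 311 ppm, and the ratio of mt-Rnr2 to mt-Rnr1 was 57.1 to 98.2 over the libraries. Of the mRNAs, mt-Nd1 averaged 7908 ppm, mt-Atp6 7145 ppm, mt-Co1 6965 ppm, mt-Atp8 5787 ppm and mt-Co2 5214 ppm. Neighbours in this upper part of the order were not separated beyond the spread of the libraries: mt-Nd1 exceeded mt-Atp6 in 10 of 12 libraries, mt-Atp6 exceeded mt-Co1 in 6, mt-Co1 exceeded mt-Atp8 in 9, and mt-Atp8 exceeded mt-Co2 in 7. Below them, mt-Cytb (2910 ppm), mt-Nd5 (1514 ppm) and mt-Nd4 (999 ppm) followed, each above the next in all 12 libraries except that mt-Nd4 exceeded mt-Co3 (933 ppm) in 7. The lowest were mt-Nd3 (544 ppm), mt-Nd2 (363 ppm), mt-Nd6 (193 ppm), the mRNA read from the light strand, and mt-Nd4l (130 ppm).

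**Figure D2:**
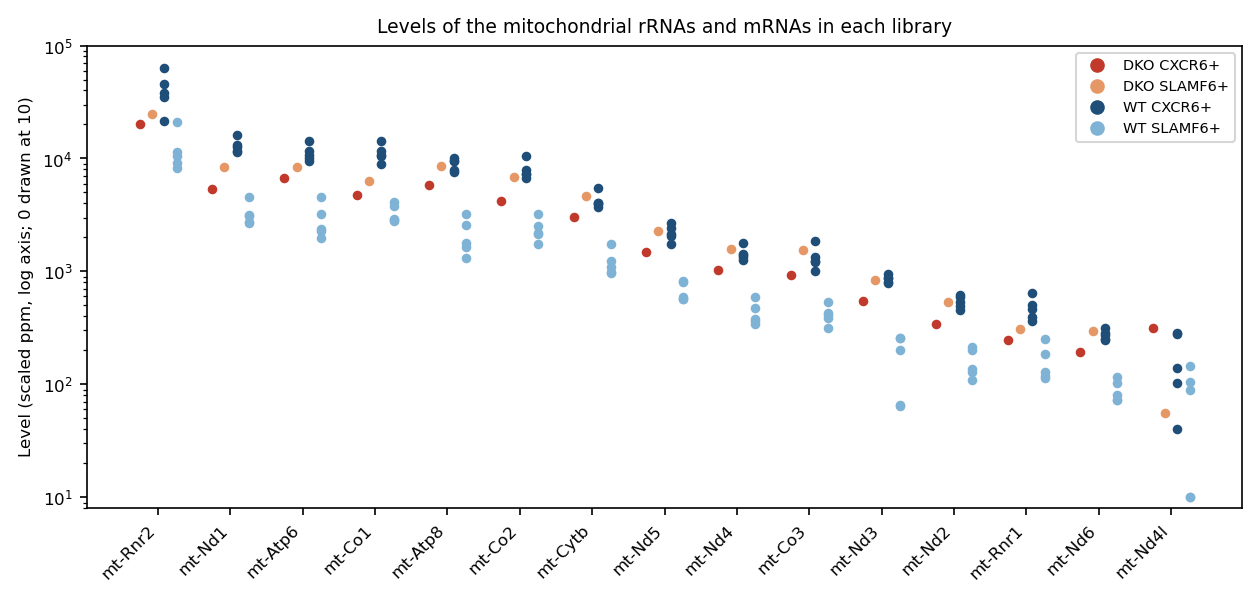
Levels (scaled ppm, log axis) of the 2 rRNAs and 13 mRNAs in each library, ordered by mean level; each point is a library and values of 0 are drawn at 10. The WT CXCR6+ points lie above the WT SLAMF6+ points for every gene but mt-Nd4l, which overlaps.

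Parts of this order depend on how reads were shared with nuclear copies. A run of 7 unprocessed pseudogenes on chromosome 1 (24611535 to 24616197, 4663 nt, all on the minus strand) holds near-identical copies of mt-Co2, mt-Atp6, mt-Co3, mt-Nd3 and mt-Nd4l nearly whole, and of parts of mt-Co1 (483 of 1545 bases) and mt-Nd4 (876 of 1378 bases), with at least 99.7% identity over the aligned bases, and each copy has a row of its own. The copy of mt-Nd4l, Gm10222 (chr1:24612407-24612700), is identical to positions 1 to 294 of its 297 bases. Gm10925 (chr1:24613974-24614651), the copy of mt-Atp6, also holds the last 43 bases of mt-Atp8. Both mRNAs are printed because mt-Nd4l matches its copy nearly whole, and mt-Atp8 shares its last 43 bases with mt-Atp6 and with Gm10925. Capitals mark the bases shared with the neighbouring mitochondrial gene, mt-Nd4 for mt-Nd4l (7 bases) and mt-Atp6 for mt-Atp8 (43 bases), from GENCODE M21 on GRCm38, 5′ to 3′.
mt-Nd4l, plus strand, chrM:9877-10173: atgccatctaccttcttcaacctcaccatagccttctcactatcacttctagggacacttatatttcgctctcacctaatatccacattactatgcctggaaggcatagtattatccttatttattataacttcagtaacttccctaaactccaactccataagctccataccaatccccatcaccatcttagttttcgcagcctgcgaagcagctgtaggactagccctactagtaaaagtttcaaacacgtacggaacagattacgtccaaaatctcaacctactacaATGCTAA
mt-Atp8, plus strand, chrM:7766-7969: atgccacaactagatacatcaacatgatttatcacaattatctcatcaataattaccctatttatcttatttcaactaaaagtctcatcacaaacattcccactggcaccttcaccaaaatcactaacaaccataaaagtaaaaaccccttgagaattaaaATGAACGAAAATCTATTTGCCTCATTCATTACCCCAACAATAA

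Except for the copy of mt-Nd4, at most 19.0 ppm in any library, the copies took up a sizeable part of the values. Gm10222 stood at 1973 ppm in DKO CXCR6+, 3004 ppm in DKO SLAMF6+, 2499 to 3957 ppm in WT CXCR6+ and 694 to 1126 ppm in WT SLAMF6+. mt-Nd4l itself, a small membrane subunit of complex I, was listed at 316 ppm in DKO CXCR6+, 55.9 ppm in DKO SLAMF6+, 103.5, 285, 277, 40.6 and 139 ppm in WT CXCR6+, and 0, 88.9, 0, 105.3 and 147 ppm in WT SLAMF6+. The copy thus took at least 86.1% of the sum of both rows, weighted by length, in each of the 12 libraries. For mt-Nd3, another complex I subunit, the copy Gm28438 took from 20.8 to 86.8% in WT SLAMF6+ and from 29.4 to 49.4% in WT CXCR6+. For mt-Co3, a subunit of cytochrome c oxidase, Gm28437 took 54.7 to 81.5% in WT SLAMF6+ and 62.3 to 70.9% in WT CXCR6+. For mt-Co1 and mt-Co2 the copies took 15.9 to 26.7% over all 12 libraries, and for mt-Nd4 at most 0.884%.

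With each copy added to its partner, weighted by the ratio of their lengths, the WT groups separated for mt-Nd4l and the place of several genes in the order changed. The mt-Nd4l sum was 2269 ppm in DKO CXCR6+, 3029 ppm in DKO SLAMF6+, 3163, 3225, 3650.0, 2514 and 4056 ppm in WT CXCR6+, and 846, 1074, 839, 792 and 1262 ppm in WT SLAMF6+, with no overlap between the WT groups. The mt-Nd3 sum was 1303 ppm in DKO CXCR6+, 1890.5 ppm in DKO SLAMF6+, 1127 to 1721 ppm in WT CXCR6+ and 304 to 493 ppm in WT SLAMF6+. On this scale mt-Co3 averaged 2648 ppm and mt-Nd4l 2227 ppm, both above mt-Nd5 (1514 ppm) in all 12 libraries. The other 9 nuclear copies in the table, with 90.7 to 97.6% identity, held at most 0.0534% of their partner's mean level.

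**Figure D3:**
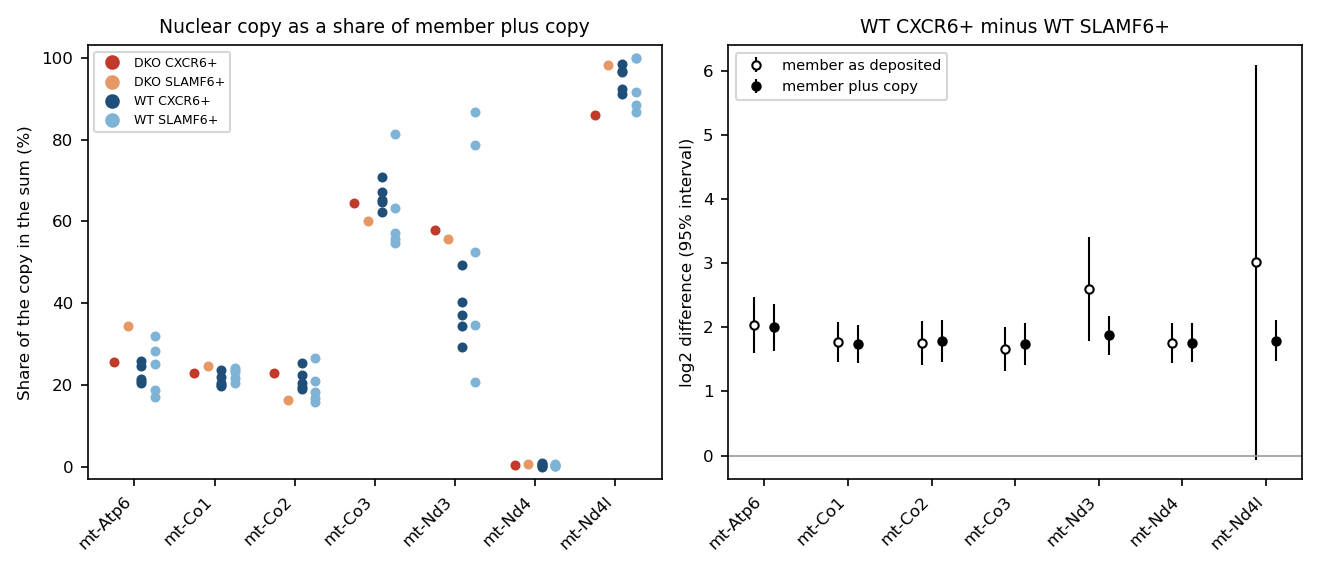
Left, the nuclear copy as a share (%) of the sum of member and copy, weighted by transcript length, in each library; right, the log2 difference of WT CXCR6+ minus WT SLAMF6+ with its 95% interval, for the member as deposited (open) and for the sum (filled). The wide interval of mt-Nd4l as deposited (-0.06 to 6.09) narrows to 1.47 to 2.11 for the sum.

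In WT cells, CXCR6+ libraries held higher levels of 20 of the 22 tested members, and none was lower. The 20 were 12 of 13 mRNAs, both rRNAs and 6 of 7 tRNAs (limma on log2 scaled ppm with a pseudocount of 1, Benjamini-Hochberg over 14589 genes, threshold 0.05). Over all tested genes this comparison called 54.1%, with 29.6% higher. The median log2 difference was 1.80 over the 13 mRNAs and 1.68 over the 2 rRNAs, beside 0.07 over all tested genes. Of the 6 tRNAs called, mt-Ta, mt-Ts1 and mt-Te have 69 nt and were listed at 0 in 4 or 5 WT SLAMF6+ libraries, so that their fitted differences are no measure of size. They passed the filter mostly through WT CXCR6+ and DKO libraries, and their calls cannot be told apart from a length limit described further on. Without the tRNAs, 14 of 15 mRNAs and rRNAs were called higher. Scaling to library totals alone moved the median of all genes to 0.29, where 20 members were again higher, with a median of 2.08 over the 22, and the split of all calls moved to 5879 higher and 2095 lower, from 4320 higher and 3571 lower.

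Of the complex I subunits, the largest called differences were those of mt-Nd3 and mt-Nd1. mt-Nd1 (chrM:2751-3707) stood at 11494, 11718, 13103, 12582 and 16071 ppm in WT CXCR6+, against 2716, 3132, 2686, 3126 and 4576 ppm in WT SLAMF6+ (log2 2.02, SE 0.14, adjusted p 4.14e-07). The lowest WT CXCR6+ library was above the highest WT SLAMF6+ library. mt-Nd3 had a log2 difference of 2.60 (SE 0.37) as deposited and 1.87 (SE 0.14) with its copy added. mt-Nd2 (log2 1.80), mt-Nd4 (1.76) and mt-Nd5 (1.72) rose within a narrow range. mt-Nd6, the light-strand mRNA (chrM:13552-14070, minus strand), stood at 271, 249, 285, 254 and 317 ppm in WT CXCR6+, against 73.1, 115, 72.7, 79.8 and 102 ppm in WT SLAMF6+ (log2 1.65, SE 0.13, adjusted p 7.72e-07). Library strand was not kept, so reads of mt-Nd6 cannot be told from reads of the heavy-strand RNA opposite it, and its last 14 bases also lie opposite mt-Nd5. mt-Nd4l did not pass as deposited (log2 3.01, SE 1.42, adjusted p 0.0901), and it passed with its copy added (1.79, SE 0.15, adjusted p 1.08e-06).

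The subunits of the other complexes rose by similar amounts. mt-Cytb, the complex III subunit (chrM:14145-15288), stood at 3743, 3944, 4071, 4049 and 5440.2 ppm in WT CXCR6+, against 959, 1229, 990, 1095 and 1748 ppm in WT SLAMF6+ (log2 1.84, SE 0.16). mt-Co1, the catalytic subunit of cytochrome c oxidase (chrM:5328-6872), stood at 10771, 10571, 11638, 8988 and 14141 ppm in WT CXCR6+, against 2898, 3774, 2792, 2840 and 4150.1 ppm in WT SLAMF6+ (log2 1.77, SE 0.14). mt-Co2 and mt-Co3 differed by log2 1.76 and 1.66. The ATP synthase subunits mt-Atp8 (log2 2.14, SE 0.21) and mt-Atp6 (log2 2.03, SE 0.20) had the largest differences outside complex I. All mRNAs but mt-Nd4l were higher in every WT CXCR6+ library than in any WT SLAMF6+ library, as were 21.2% of all tested genes.

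The rRNAs rose less precisely. mt-Rnr2 stood at 45342, 35321, 63240.1, 21381 and 38096 ppm in WT CXCR6+, against 11399.6, 21152, 9050.1, 8298 and 10537 ppm in WT SLAMF6+ (log2 1.75, SE 0.29, adjusted p 0.000294). mt-Rnr1 stood at 465, 398, 644, 367 and 506 ppm in WT CXCR6+, against 128, 252, 114, 120 and 185 ppm in WT SLAMF6+ (log2 1.61, SE 0.21, adjusted p 5.5e-05). WT SLAMF6+ replicate 2 was the highest of its group for both.

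Among CXCR6+ cells 5 of 22 tested members were lower in the DKO library than in the WT libraries, none was higher, and the other 17 did not pass the test. Over all tested genes 44.1% passed, with 25.7% lower, so the share of members called was near that of all genes. mt-Nd1 stood at 5349 ppm in DKO CXCR6+, against 11494 to 16071 ppm in WT CXCR6+ (log2 -1.27, SE 0.25, adjusted p 0.00122). mt-Co1 stood at 4762 ppm in DKO CXCR6+, against 8988 to 14141 ppm in WT CXCR6+ (log2 -1.22, SE 0.24, adjusted p 0.00136). mt-Co2 stood at 4211 ppm in DKO CXCR6+, against 6657 to 10586 ppm in WT CXCR6+ (log2 -0.90, SE 0.27, adjusted p 0.0182). The other 2 members called were the tRNAs mt-Tq and mt-Tn, and the call of mt-Tn rests on its being listed at 0 in DKO CXCR6+.

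The other mRNAs and rRNAs did not pass in CXCR6+ cells, with log2 differences of -0.74 (mt-Atp6) to -0.47 (mt-Co3) for the mRNAs, -0.90 for mt-Rnr1 and -0.91 for mt-Rnr2. The exception was mt-Nd4l, at 1.21 with a 95% interval of -4.12 to 6.54 as deposited, and at -0.53 (-1.08 to 0.02) with its copy added. The DKO value lay below all 5 WT values for 12 mRNAs and both rRNAs, a position that 39.1% of all tested genes shared. The median was -0.62 over the 13 mRNAs and -0.12 over all tested genes. A fit of CXCR6+ libraries and their DKO library alone called 9 members, and scaling to library totals alone called 11.

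Among SLAMF6+ cells the DKO library held higher levels of 15 of the 22 tested members than the WT libraries, and none was lower. The 15 were 12 of 13 mRNAs, mt-Rnr1 and the tRNAs mt-Ta and mt-Te. Both tRNAs have 69 nt and were listed at 0 in 5 and 4 of the 5 WT SLAMF6+ libraries, so their calls cannot be told apart from the length limit. With a term for the libraries that list mt-Ts1 at 0, described further on, 12 members passed, all mRNAs, and mt-Ta (adjusted p 0.109), mt-Te (adjusted p 0.0602) and mt-Rnr1 (adjusted p 0.212) did not. Over all tested genes 46.3% passed, with 21.4% higher. The median log2 difference was 1.79 over the mRNAs and -0.02 over all tested genes. mt-Cytb stood at 4631 ppm in DKO SLAMF6+, against 959 to 1748 ppm in WT SLAMF6+ (log2 1.98, SE 0.27, adjusted p 7.28e-05). mt-Nd4 stood at 1582 ppm in DKO SLAMF6+, against 344 to 590.2 ppm in WT SLAMF6+ (log2 1.90, SE 0.25, adjusted p 4.86e-05). mt-Atp8 reached 8568 ppm, against 1314 to 3233 ppm in WT SLAMF6+ (log2 2.09, SE 0.36), and mt-Co1 6254 ppm, against 2792 to 4150.1 ppm (log2 0.95, SE 0.24), the smallest called difference among the mRNAs.

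mt-Rnr1 rose in SLAMF6+ cells of the DKO library to 308 ppm, against 114 to 252 ppm in WT SLAMF6+ (log2 1.01, SE 0.37, adjusted p 0.0411), a call that held in 15 of 22 alternatives (adjusted p 0.00573 to 0.212) and was lost without WT SLAMF6+ replicate 1, 3 or 4. mt-Rnr2 did not pass, at 24753 ppm in DKO SLAMF6+, against 8298 to 21152 ppm in WT SLAMF6+ (log2 1.12, SE 0.50, adjusted p 0.0865). For 12 mRNAs and both rRNAs the DKO value was above the WT range, as it was for 37.9% of all tested genes, with 38.9% below it. mt-Nd4l was within the range as deposited, and with its copy added it passed (log2 1.68, SE 0.25, adjusted p 0.00017). This library also held haemoglobin genes at 11.9% of its total, against at most 0.000352% in the 11 others. Their part in the levels was not tested. With ribosomal protein, haemoglobin and Malat1 values taken out of the total, the mRNA share was 5.61% in DKO SLAMF6+, against 1.54 to 2.77% in WT SLAMF6+.

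In the DKO pair, which has no replicates and no test, 12 of 13 mRNAs and both rRNAs were lower in DKO CXCR6+ than in DKO SLAMF6+, by log2 0.28 to 0.73. The share of all tested genes lower in this pair was not counted, so these counts have no background. The scaling factors were 1.00 in DKO CXCR6+ and 0.814 in DKO SLAMF6+. With library totals alone the direction turned for mt-Rnr2 (log2 ratio 0.02), mt-Rnr1 was near even (-0.0067), and the 12 mRNAs ran from -0.43 (mt-Co3) to -0.01 (mt-Atp6). mt-Nd1 stood at 5349 ppm in DKO CXCR6+ and 8349.7 ppm in DKO SLAMF6+. mt-Nd4l went the other way as deposited, at 316 ppm in DKO CXCR6+ and 55.9 ppm in DKO SLAMF6+, but not with its copy added (2269 ppm in DKO CXCR6+ and 3029 ppm in DKO SLAMF6+). The test of the difference between genotypes (the interaction) called 15 members, all lower: 12 mRNAs, mt-Rnr1 and the tRNAs mt-Tq and mt-Tn. Over all tested genes it called 17.9%, with 8.86% higher and 9.08% lower. The median was -2.39 over the mRNAs and -0.07 over all tested genes, with values from -3.21 for mt-Nd3 to -2.17 for mt-Co1 among the mRNAs called. For mt-Nd1 the interaction was -2.66 (SE 0.35, adjusted p 0.0009996), for mt-Cytb -2.46 (SE 0.38, adjusted p 0.00199), and for mt-Rnr2, not called, -2.03 (SE 0.71, adjusted p 0.0681). The call of mt-Nd3 (adjusted p 0.0309) held in 19 of 22 alternatives (adjusted p 0.00119 to 0.0805), and its interaction was -2.41 (SE 0.33) with the nuclear copy added. Without WT CXCR6+ replicate 4 or WT SLAMF6+ replicate 2, mt-Rnr2 passed too, at -2.24 and -2.25.

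The nuclear copies, tested as rows of their own, gave calls in the same directions. Their reads cannot be told from those of the members over the near-identical bases, so these calls are not separate evidence. Of the 7 copies, 6 were higher in WT CXCR6+ than in WT SLAMF6+, 2 were lower in DKO CXCR6+ than in WT CXCR6+, 6 were higher in DKO SLAMF6+ than in WT SLAMF6+, and 5 were lower in the interaction. With the copies added to the members, the counts of members called were 21, 5, 16 and 16 in those comparisons, in the same order. mt-Nd4l was the gene whose values moved most: its interaction was -0.53 (SE 3.47) as deposited and -2.21 (SE 0.36, adjusted p 0.00235) with its copy.

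**Figure D4:**
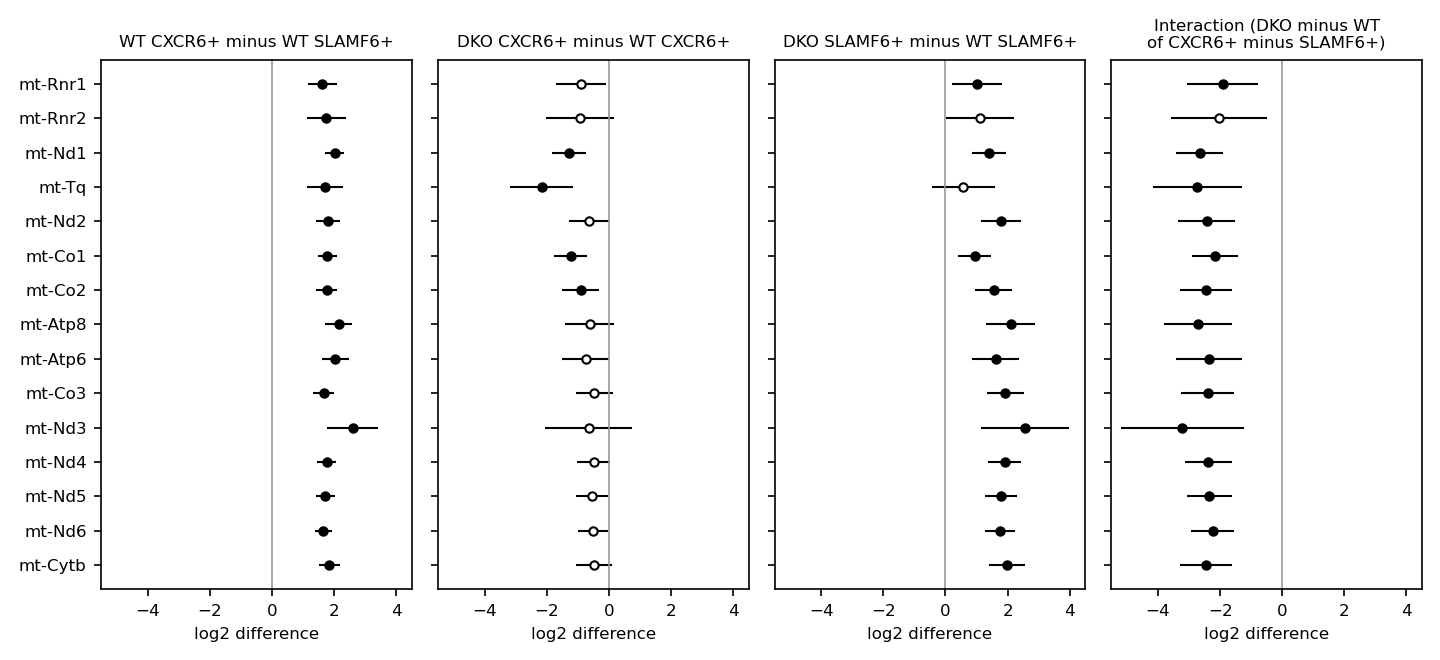
Log2 differences with 95% intervals for 14 rRNAs and mRNAs (mt-Nd4l is left out for its wide interval) and the tRNA mt-Tq in 4 comparisons; filled points passed limma's test at an adjusted p of 0.05. All members shown are above 0 in WT CXCR6+ minus WT SLAMF6+ and below 0 in the interaction.

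Within the mRNAs, the make-up overlapped between the WT subsets for most genes, which does not show that it was alike. The tRNA part of the mitochondrial values is not compared here. As a share of the summed mRNA values, 12 of 13 mRNAs overlapped between WT CXCR6+ and WT SLAMF6+, and mt-Nd4 was lower in every WT CXCR6+ library. Both DKO libraries lay outside the range of the WT libraries for 4 mRNAs. As a share of all 36 members, mt-Co1 alone did so (6.42% in DKO CXCR6+ and 5.95% in DKO SLAMF6+, against 6.48 to 12.04% in WT). mt-Co1 held 13.7% of the mRNA values in DKO CXCR6+ and 12.5% in DKO SLAMF6+, against 15.4 to 21.4% in the 10 WT libraries. mt-Cytb held 8.70% in DKO CXCR6+ and 9.25% in DKO SLAMF6+, against 6.34 to 7.58% in WT. mt-Nd4 held 2.96% and 3.16% in DKO CXCR6+ and DKO SLAMF6+, against 2.16 to 2.63% in WT, and mt-Atp8 held 16.6% and 17.1%, against 10.1 to 16.2% in WT. With the nuclear copies added, mt-Co1, mt-Cytb and mt-Nd4 stayed outside the WT range, mt-Atp8 did not, and mt-Nd1 (below) and mt-Co3 and mt-Nd3 (above) were outside it too. These are descriptions of 2 libraries with no test.

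The 21 tRNAs were measured far less completely than the longer RNAs. Of 252 tRNA values 82 were above 0, the smallest of them 675 in the deposited unit, and mt-Td was listed at 0 in all 12 libraries. Only mt-Tq, the glutamine tRNA, was above 0 in all 12. The tRNAs with the highest levels are printed here because their lengths, 69 and 71 bases, fall on either side of a length limit in 5 libraries. Capitals mark the 3 bases that each shares with a neighbouring gene on the opposite strand, mt-Co1 for mt-Ts1 and mt-Ti for mt-Tq, from GENCODE M21 on GRCm38, 5′ to 3′.
mt-Ts1, minus strand, chrM:6870-6938: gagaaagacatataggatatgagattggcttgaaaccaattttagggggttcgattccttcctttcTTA
mt-Tq, minus strand, chrM:3772-3842: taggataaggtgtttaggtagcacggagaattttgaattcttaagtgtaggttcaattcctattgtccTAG

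mt-Ts1, a serine tRNA, was at 16135 ppm in DKO CXCR6+ and 22007 ppm in DKO SLAMF6+, at 0, 31913, 33269, 36145 and 32541 ppm in WT CXCR6+, and at 0, 15244, 0, 0 and 0 ppm in WT SLAMF6+. It was thus the highest tRNA in 7 libraries and listed at 0 in 5, WT CXCR6+ replicate 1 and WT SLAMF6+ replicates 1, 3, 4 and 5. In those 5 libraries none of 31 other genes with a single transcript of 60 to 69 nt was above 0, and the shortest tRNA above 0 had 71 nt. In the other 7 libraries 3 to 17 of the 31 genes were above 0, and the shortest tRNA above 0 had 65 to 69 nt. A further gene annotated in that length range, Gm25432, was left aside after its values were seen: it had 17 in WT CXCR6+ replicate 1 and 12, 0, 14 and 11 in WT SLAMF6+ replicates 1, 3, 4 and 5, in the deposited unit. Since 4 of the 5 libraries with that limit were WT SLAMF6+, the subset and the length limit cannot be told apart for tRNAs of 69 nt or less. In WT CXCR6+ replicates 2 to 5, mt-Ts1 held 3.49 to 4.11% of the library total, of a tRNA share of 4.13 to 5.09%. Because library strand was not kept, reads of mt-Ts1 cannot be told from reads of heavy-strand RNA opposite it.

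Values of short genes were also large for the evidence behind them. The median of values above 0 was 1209 in the deposited unit for single-transcript genes of 65 to 70 nt, 29 for 190 to 210 nt, and 3 for 1900 to 2100 nt. In WT CXCR6+ replicate 2, mt-Th and mt-Tt, both of 67 nt, had the same value of 1228, and mt-Ty, of the same length, had 2455. Such steps leave single tRNA values with little precision.

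mt-Tq, at 71 nt, was above 0 in all 12 libraries but lies close to the limit. In the 5 libraries with mt-Ts1 at 0, the shortest gene above 0 had 70 or 71 nt. The part of the limit in the values of mt-Tq was not tested further. Over 22 alternatives, among them a term for those 5 libraries, mt-Tq differed between the WT subsets by log2 1.51 to 1.96. It stood at 6065, 6962, 3419, 4221 and 7365 ppm in WT CXCR6+, against 1982, 2393, 962, 2108 and 1272 ppm in WT SLAMF6+ (log2 1.70, SE 0.27, adjusted p 0.000206), with no overlap. It stood at 1203 ppm in DKO CXCR6+, below all WT CXCR6+ libraries (log2 -2.16, SE 0.47, adjusted p 0.00238), and at 2460.0 ppm in DKO SLAMF6+ (log2 0.58, SE 0.47, adjusted p 0.336). The interaction was -2.73 (SE 0.66, adjusted p 0.0148). Of the other tRNAs over 69 nt, mt-Tl1, the tRNA next to mt-Rnr2 (75 nt), was above 0 in all 5 WT CXCR6+ libraries (223 to 352 ppm) and in 2 of 5 WT SLAMF6+ libraries (74.7 and 193 ppm). It was at 335 ppm in DKO CXCR6+ and listed at 0 in DKO SLAMF6+. mt-Tn (71 nt) was at 149 to 961 ppm in all 5 WT CXCR6+ libraries and above 0 in 3 of 5 WT SLAMF6+ libraries, and mt-Tl2 (71 nt) was above 0 in 2 libraries of each WT subset. Library strand was not kept, so reads of the light-strand tRNAs cannot be told from reads of heavy-strand RNA across them.

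**Figure D5:**
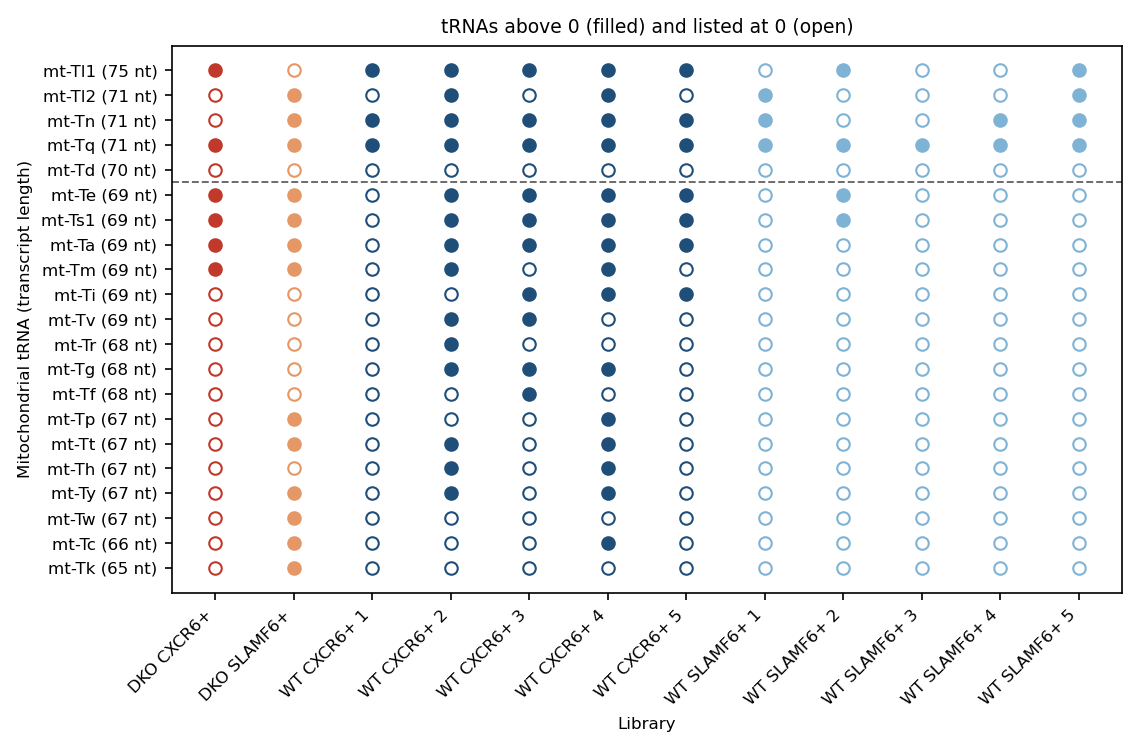
Detection of the 21 tRNAs, ordered by transcript length (nt), in each library; filled circles are above 0 and open circles are listed at 0, and the dashed line lies between 69 and 70 nt. Below the line WT CXCR6+ replicate 1 and WT SLAMF6+ replicates 1, 3, 4 and 5 have no filled circle.

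The WT comparison was also read within libraries alike in the length limit. Among the libraries with mt-Ts1 listed at 0, the mRNA share was 6.74% in WT CXCR6+ replicate 1, against 1.24 to 2.22% in 4 WT SLAMF6+ libraries, and the rRNA share was 5.38%, against 0.788 to 1.09%. Among those with mt-Ts1 above 0, the mRNA share was 6.63 to 8.55% in 4 WT CXCR6+ libraries, against 1.70% in WT SLAMF6+ replicate 2, and the rRNA share was 2.47 to 6.70%, against 1.92%. In each of these sets every mRNA and rRNA but mt-Nd4l was higher in all WT CXCR6+ than in all WT SLAMF6+ libraries. These members and both shares did not overlap between the full WT groups. Any split of the libraries therefore gives this result, which is no check on the length limit. With a term for the 5 libraries in the fit, 14 of the 15 mRNAs and rRNAs were higher in WT CXCR6+, with a median log2 difference of 1.68, beside 14 and 1.77 without it. The largest falls were those of mt-Nd4l (1.96, not called), mt-Co3 (1.38), mt-Rnr1 (1.34) and mt-Rnr2 (1.51). Of the tRNAs, mt-Tl1 (adjusted p 0.0918) and mt-Te (adjusted p 0.296) no longer passed. The same term gave 4 of the 15 lower in DKO CXCR6+ (3 without it), 12 higher in DKO SLAMF6+ (13 without it) and 12 lower in the interaction (13 without it). The part of the length limit in these differences was not tested further.

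Nuclear genes were read in 5 lists, for mitochondrial DNA maintenance, transcription, RNA processing and decay, aminoacyl-tRNA synthetases, and insertion and assembly of the encoded subunits. Of 116 tested genes, 16 were higher and 38 lower between the WT subsets (CXCR6+ minus SLAMF6+), beside 29.6% higher and 24.5% lower among all tested genes, and the median log2 difference was -0.15. The lower calls were not spread evenly, with 15 of the 38 in the assembly list, and the synthetases had more higher than lower calls. Of 10 genes of mitochondrial transcription, 1 rose and 4 fell: Polrmt, the mitochondrial RNA polymerase, stood at 33.2 ± 4.05 ppm in WT CXCR6+ and 20.1 ± 3.68 ppm in WT SLAMF6+ (SD, n = 5 each; log2 0.70, adjusted p 0.000508), and Mterf3 fell (18.5 ± 2.98 ppm in WT CXCR6+ and 25.9 ± 4.69 ppm in WT SLAMF6+; SD, n = 5 each; log2 -0.46, adjusted p 0.0114). Mrpl12 (log2 -0.42) and Mterf4 (log2 -0.39), of the same list, fell too, with the smallest p of the 4 that of Mrpl12. Of 18 genes of mitochondrial DNA maintenance, 1 rose, the polymerase gene Polg (log2 0.78), and 6 fell, with the adenine nucleotide carrier Slc25a4 the most significant (log2 -0.61).

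Of 40 genes of mitochondrial RNA processing and decay, 6 rose and 9 fell. Fastk rose (85.2 ± 9.07 ppm in WT CXCR6+ and 56.9 ± 7.45 ppm in WT SLAMF6+; SD, n = 5 each; log2 0.58). Slirp, a partner of Lrpprc in stabilising mitochondrial mRNA, fell (164 ± 12.7 ppm in WT CXCR6+ and 260 ± 15.8 ppm in WT SLAMF6+; SD, n = 5 each; log2 -0.67, adjusted p 6.23e-06). Hsd17b10, a subunit of mitochondrial RNase P, fell too (log2 -0.79). Of 22 aminoacyl-tRNA synthetase genes, 7 rose, such as Cars2 (log2 0.97) and Vars2 (log2 1.09), and 5 fell, among them Kars and Gars, whose products also serve the cytosol. Of 27 genes for insertion and assembly of mitochondrially encoded subunits, 1 rose (Acad9, log2 0.34) and 15 fell. Uqcc2, an assembly factor of complex III, fell furthest of those named (93.3 ± 12.2 ppm in WT CXCR6+ and 209.8 ± 20.5 ppm in WT SLAMF6+; SD, n = 5 each; log2 -1.16). Between genotypes, 26 of the 116 were higher and 18 lower in DKO CXCR6+ than in WT CXCR6+, and 21 were higher and 23 lower in DKO SLAMF6+ than in WT SLAMF6+, beside 18.3% higher and 25.7% lower, and 21.4% higher and 24.9% lower, among all tested genes.

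Other RNAs also differed between the groups, not all in the order of the mitochondrial share, and their part in that share was not tested. Malat1, a nuclear RNA, was at 6600.5 ppm in DKO CXCR6+, 7294 ppm in DKO SLAMF6+, 7564 to 10865 ppm in WT CXCR6+ and 1971 to 2861 ppm in WT SLAMF6+. Ribosomal protein genes made up 15.8% of the total in DKO CXCR6+, 14.8% in DKO SLAMF6+, 9.24 to 10.6% in WT CXCR6+ and 18.5 to 19.7% in WT SLAMF6+. Summed astrocyte markers (6 genes, 1 above 0 in all libraries) were at 3.03 ppm in DKO CXCR6+, 1.63 ppm in DKO SLAMF6+, 55.5 to 79.6 ppm in WT CXCR6+ and 134 to 142 ppm in WT SLAMF6+. Oligodendrocyte markers (6 genes, 2 above 0 in all) were at 252 ppm in DKO CXCR6+, 239.8 ppm in DKO SLAMF6+, 70.1 to 77.1 ppm in WT CXCR6+ and 120.2 to 139 ppm in WT SLAMF6+. Myeloid and microglial markers (15 genes, 2 above 0 in all) were at 996 ppm in DKO CXCR6+, 175 ppm in DKO SLAMF6+, 25.0 to 53.1 ppm in WT CXCR6+ and 65.4 to 85.1 ppm in WT SLAMF6+. Dendritic cell markers (9 genes, 5 above 0 in all) were at 222 ppm in DKO CXCR6+, 1369 ppm in DKO SLAMF6+, 96.1 to 148 ppm in WT CXCR6+ and 245 to 304 ppm in WT SLAMF6+.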

How the data were processed

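Gene values of 12 libraries were taken from the deposited table. Reads were processed with STAR 2.7.7a and RSEM 1.3.3 on mm10, per the submitters' processing notes; neither the annotation nor the step that gave whole numbers is stated there. The deposited values were treated as a score, a length-scaled abundance rounded by the authors, because the smallest values above 0 fell with transcript length. They are not counts, so the count-based test first planned was replaced by limma 3.58.1 (R 4.3.3) with a mean-variance trend.

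Values in ppm of the library total were divided by a trimmed mean of log2 ratios over genes of at least 1 ppm in all libraries (30% of ratios and 5% of levels trimmed at each end), giving scaled ppm. Genes of at least 1 ppm in at least 5 libraries (14589) were tested on log2(ppm + 1), with all 4 groups in 1 fit (8 residual degrees of freedom) and Benjamini-Hochberg adjustment at 0.05. Fold changes on this scale understate those of low genes. Depth per gene is unknown for this unit, so no counting interval is given. All 36 members may be named; nuclear genes are named by smallest p, up to 3 per list and direction. Members and lists were chosen with earlier results of these data known. Nuclear copies were found with blastn 2.17.0+ (at least 90% identity over at least 38 nt) in GENCODE M21 transcripts. The steps were tested on simulated data. Groups follow the labels. Alternatives changed the scaling, filter, pseudocount, variance model, samples and libraries.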

Additional observations from a re-analysis of the deposited data

Results flagged for a closer look

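In a few value sets of 5 WT libraries, 1 library lay far from the others (7 of 38 sets examined). Chance flags about 1 in 20 of independent sets. These sets share libraries and members, so their number cannot be set against that rate. WT SLAMF6+ replicate 2 was high for mt-Rnr2 (21152 ppm), for the rRNA share (1.92%) and for the tRNA share (1.62%). WT SLAMF6+ replicate 5 was high for mt-Nd1 (4576 ppm). WT CXCR6+ replicate 5 was high for mt-Cytb (5440.2 ppm) and for the mRNA share (8.55%), and WT CXCR6+ replicate 1 was low for the tRNA share (0.756%).

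The difference of CXCR6+ minus SLAMF6+ was lower in DKO than in WT for 15 members by the interaction term of the limma fit. The log2 values were -2.66 for mt-Nd1, -2.44 for mt-Nd2, -3.21 for mt-Nd3, -2.38 for mt-Nd4, -2.35 for mt-Nd5 and -2.24 for mt-Nd6. They were -2.46 for mt-Cytb, -2.17 for mt-Co1, -2.45 for mt-Co2, -2.39 for mt-Co3, -2.35 for mt-Atp6 and -2.71 for mt-Atp8. They were -1.92 for mt-Rnr1, -2.73 for mt-Tq and -12.56 for mt-Tn, the last a fitted value that rests on mt-Tn being listed at 0 in DKO CXCR6+ and is no measure of size. Each rests on 1 library per DKO subset, where genotype cannot be told apart from the other differences of these libraries.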

How the results depend on the processing

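The number of members lower in DKO CXCR6+ than in WT CXCR6+ (5) was 3 with no filter on low values, 9 in a fit of the compared groups alone, 11 with scaling to library totals alone and 3 among genes of at least 200 nt, a set without tRNAs. With no filter, 10576 genes were called in DKO SLAMF6+ against WT SLAMF6+ (6753 with the filter) and 6705 in the interaction (2617 with it). The median log2 ratio of the mRNAs in the DKO pair was -0.62, and -0.32 with library totals alone. The number of mRNAs outside the WT range in both DKO libraries was 1 as a share of all members, 4 within the mRNA class and 6 with the nuclear copies added. For mt-Nd4l the sign turned in DKO CXCR6+ against WT CXCR6+ with its copy added (-0.53), and in the interaction when the fit held a term marking the libraries that list mt-Ts1 at 0 (0.51), with a pseudocount of 10 (0.57) and without WT SLAMF6+ replicate 1 (0.49) or replicate 3 (0.49), where leaving out 1 library gave -1.32 to 0.49. The cause of these changes was not tested.

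Leaving out each WT library in turn gave 17 to 20 members higher in WT CXCR6+ (7206 to 7667 genes called), 5 to 7 lower in DKO CXCR6+ (6199 to 6434 genes), 13 to 17 higher in DKO SLAMF6+ (6338 to 6951 genes) and 15 to 16 lower in the interaction (2197 to 2826 genes). Over WT SLAMF6+, the mRNA share ratio was 4.20 to 4.92 for WT CXCR6+ and 2.43 to 2.84 for DKO SLAMF6+, and the rRNA ratio 3.55 to 4.86 and 1.67 to 2.18. The tRNA ratio was 7.07 to 23.3 and 4.46 to 14.7, with the highest values without WT SLAMF6+ replicate 2. For DKO CXCR6+ over WT CXCR6+ the ratios were 0.486 to 0.520 (mRNA), 0.407 to 0.514 (rRNA) and 0.409 to 0.533 (tRNA).

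With a replicate block, 20 members were higher in WT CXCR6+ and 15 lower in the interaction (7619 and 2117 genes called). Same-numbered libraries correlated at -0.064 to 0.060 in their deviations, so the numbers were not taken to pair them. For the mRNAs, the rRNAs and mt-Tq under all alternatives, 1377 values kept their direction and side of the threshold. A further 26 newly passed, 12 no longer passed and 5 turned. The other tested tRNAs were left out of this tally. The planned count-based test and the effective-length setting were not run, since the values are neither counts nor free of a length division. Depth per gene is unknown, and short genes have few distinct values.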
